A study of Mus musculus with 14 samples.

Results

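The cytosolic ribosomal proteins are the protein subunits of the ribosome that translates nuclear messages. They were taken as every gene whose platform symbol starts with Rpl or Rps and a digit, or is Rplp0, Rplp1, Rplp2 or Rpsa, without the ribosomal S6 kinases and pseudogenes. By that rule 48 of the 12393 genes on the array were members, 22 of the small subunit (Rps, Rpsa) and 26 of the large subunit (Rpl, Rplp), and the choice used no measured difference. Of these, 42 are core subunits and 6 are paralogs or related genes (Rpl22l1, Rpl39l, Rpl3l, Rpl7l1, Rps27l and Rps4l). A further 30 symbols fit the rule but lay only on probe sets that the platform annotation pairs with several genes, and their levels were not used here.

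The RNA came from primitive erythroid precursors, the first red cells of the embryo, captured by laser from frozen yolk sac sections of FVB/N mice at embryonic day 9.5. There were 3 arrays of KLF1-/- embryos, 3 of embryos labelled KLF1-/- KLF2-/- and 8 of wild type. KLF1 and KLF2 are Krüppel-like transcription factors; these are constitutive knockouts, with mothers heterozygous for KLF1 or for both genes. Each replicate pooled 2 to 4 yolk sacs of 2 litters, and 10 to 20 ng of RNA went through 2 rounds of oligo(dT)-primed amplification. Values are deposited log2 expression per probe set, so a difference of 1 is a doubling, and each gene is given by its brightest probe set. Klf1 was 9.53, 9.79 and 9.03 on the KLF1-/- arrays and 9.29, 9.59 and 8.56 on those labelled KLF1-/- KLF2-/-, against a lowest, median and highest value of 10.05, 10.48 and 11.82 in wild type. Every mutant array thus lay below every wild-type array for Klf1, yet its limma adjusted p was 0.9998 in KLF1-/- and 0.317 in those labelled KLF1-/- KLF2-/-. Klf2 averaged 6.69 ± 0.32 (SD, n = 3) on the arrays labelled KLF1-/- KLF2-/- and 6.25 ± 0.25 (SD, n = 8) in wild type, so its signal was not lower there, and the sources used here do not say whether its probes lie in the deleted part. These arrays are therefore named by their label.

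Ribosomal proteins are made in equal numbers and assemble with ribosomal RNA in the nucleolus, with the help of many assembly factors. Most of their messages begin with a 5′ terminal oligopyrimidine (TOP) tract, a C followed by pyrimidines at the very start, which lets the mTOR pathway and Larp1 set their translation together. Red cell precursors depend on this supply while they make globin, and in humans the loss of 1 copy of any of several ribosomal protein genes causes Diamond-Blackfan anaemia, a failure of red cell production.

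The starts of these genes are shown because the TOP tract is the feature the family shares outside the array data. RefSeq promoters (GRCm38.p6, 250 bases before to 50 after each annotated start) were found for 42 of the 48 members, 50 promoters in all. The 48 genes lie on 17 chromosomes. A tract was counted where a C within 10 bases of the start was followed by at least 4 pyrimidines, read on the strand of the gene. It was present in 28 of 50 member promoters (56%), against 30.7% of all 32851 promoters and 31.9% of the 12567 promoters of genes on the array. The first group below shows members with a tract, each from 30 bases before to 20 bases after the start, with the tract in capitals.
Rpl27a (chr7:109519165-109519214, plus strand): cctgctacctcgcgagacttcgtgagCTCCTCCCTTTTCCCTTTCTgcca
Rpl13a (chr7:45128726-45128775, minus strand): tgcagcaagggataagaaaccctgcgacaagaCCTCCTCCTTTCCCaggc
Rps18 (chr17:33955646-33955695, minus strand): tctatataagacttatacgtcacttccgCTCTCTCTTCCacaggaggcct
Rps6 (chr4:86857348-86857397, minus strand): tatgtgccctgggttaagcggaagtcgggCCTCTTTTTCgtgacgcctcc
Rps24 (chr14:24490648-24490697, plus strand): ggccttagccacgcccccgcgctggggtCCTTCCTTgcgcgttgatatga
Rps26 (chr10:128626487-128626536, minus strand): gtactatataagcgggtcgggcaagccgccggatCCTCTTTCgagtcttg

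The tract of Rpl27a, at 20 bases, was the longest among the members, whose median tract was 8 bases, against 6 over all promoters with one. The window around the RefSeq start held no such run for Rps25, Rpl37 and Rpl41, whose levels are described below. Their stretches of 120 bases up to the start are shown next, because all 3 hold CCGGAAG, the core that ETS factors bind. Capitals mark CCGGAAG and CCGCCC, a motif of Sp and Krüppel-like factors, on either strand.
Rps25 (chr9:44407594-44407713, plus strand): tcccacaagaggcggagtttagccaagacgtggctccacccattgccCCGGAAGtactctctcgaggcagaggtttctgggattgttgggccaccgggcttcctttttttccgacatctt
Rpl37 (chr15:5116493-5116612, plus strand): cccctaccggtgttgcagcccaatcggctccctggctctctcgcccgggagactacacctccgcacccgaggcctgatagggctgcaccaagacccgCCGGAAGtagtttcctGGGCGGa
Rpl41 (chr10:128549169-128549288, minus strand): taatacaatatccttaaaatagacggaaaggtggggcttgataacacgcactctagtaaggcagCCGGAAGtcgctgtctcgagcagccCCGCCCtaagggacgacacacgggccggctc

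CCGGAAG was present on either strand in 21 of 50 member promoters (42%), against 8.86% of all promoters and 1760 of the 12567 of genes on the array. CCGCCC stood in 52% of member promoters, 35.7% of all and 55.4% of array genes' promoters. The Myc E-box CACGTG stood in 10%, 7.15% and 9.11%, and the GATA motif AGATAA in 6%, 11.2% and 7.83%, in the same order. CCACACCC, the motif best known for KLF1 at globin promoters, stood in 6% of member promoters, 3.56% of all and 3.88% of array genes' promoters, which is 3 of the 50 here. These were promoters of Rps19, Rpl27 and Rpl3l, and those of Rps19 and Rpl27 are shown with the match in capitals. In Rpl3l, which is not shown, the match begins 223 bases before the start. In Rps19 the match begins 6 bases before the start of the third of its RefSeq promoters, on the opposite strand, and in Rpl27 it begins 191 bases before the start.
Rps19 (chr7:24884891-24884930, plus strand): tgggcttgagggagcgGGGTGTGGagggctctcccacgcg
Rpl27 (chr11:101442038-101442077, plus strand): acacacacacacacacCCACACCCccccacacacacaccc

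These motif matches are letters in a window and do not show binding.

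Signal of the members was high: the median member had a mean signal above 98.8% of all genes on the array, and 31 of 48 had a mean above 12 on the log2 scale. The means ran from 5.52 for Rpl3l, the striated-muscle paralog of Rpl3, to 13.92 for Rps20, a protein of the small subunit's head. Signals of different probe sets depend on their probes, so no order of message amounts follows. Rps27 shows this: its one-gene probe set averaged 6.12, while a probe set that lists it with another gene averaged 13.26. Of 14 members that also lay on such shared probe sets, 9 were brighter there.

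No ribosomal protein gene passed the test between genotypes. In KLF1-/- minus wild type, 0 of the 48 members passed limma at an adjusted p under 0.05, where 0.0403% of all genes did. At an unadjusted p under 0.05 there was 1 member, Rps25, against 2.03% of all genes. In the arrays labelled KLF1-/- KLF2-/- minus wild type, 0 members passed, against 0.0646% of all genes, and at an unadjusted p under 0.05 there was again 1, Rps25, against 2.32%. Between the mutants, labelled KLF1-/- KLF2-/- minus KLF1-/-, 0 members passed at either level, against 0.00807% of all genes adjusted and 0.597% unadjusted. The 2 comparisons with wild type share their control arrays. Because Klf1 itself did not pass, these zeros say little on their own, and the intervals of the differences are given instead.

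The differences were small and lay on both sides of 0. In KLF1-/- the median log2 difference of the 48 members from wild type was 0.0060, against 0.0070 over all genes, with 26 members above 0 and 22 below. In those labelled KLF1-/- KLF2-/- it was 0.00033, against 0.0067, with 25 above 0 and 23 below. Single members ran from −0.37 to 0.48 in KLF1-/- and from −0.41 to 0.48 in those labelled KLF1-/- KLF2-/-. The difference was under 0.2 in size for 44 and 43 members in these comparisons, which is 91.7% and 89.6%, against 80.8% and 81.9% of all genes. The 95% interval lay wholly within ±1 for 47 members in each comparison, the exceptions being Rps4l in KLF1-/- and Rps15 in those labelled KLF1-/- KLF2-/-. It lay within ±0.5 for 18 and 23, and reached beyond that for the rest. These intervals are not adjusted for the number of genes. Klf1, at −1.22 and −1.52 in these comparisons, did not pass the adjusted test, so shifts well above 0.5 could also go uncalled. Mutant arrays all above or all below the wild-type arrays were seen for 0 members in both comparisons, where 0.573% and 0.750% of all genes had them.

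**Figure D1:**
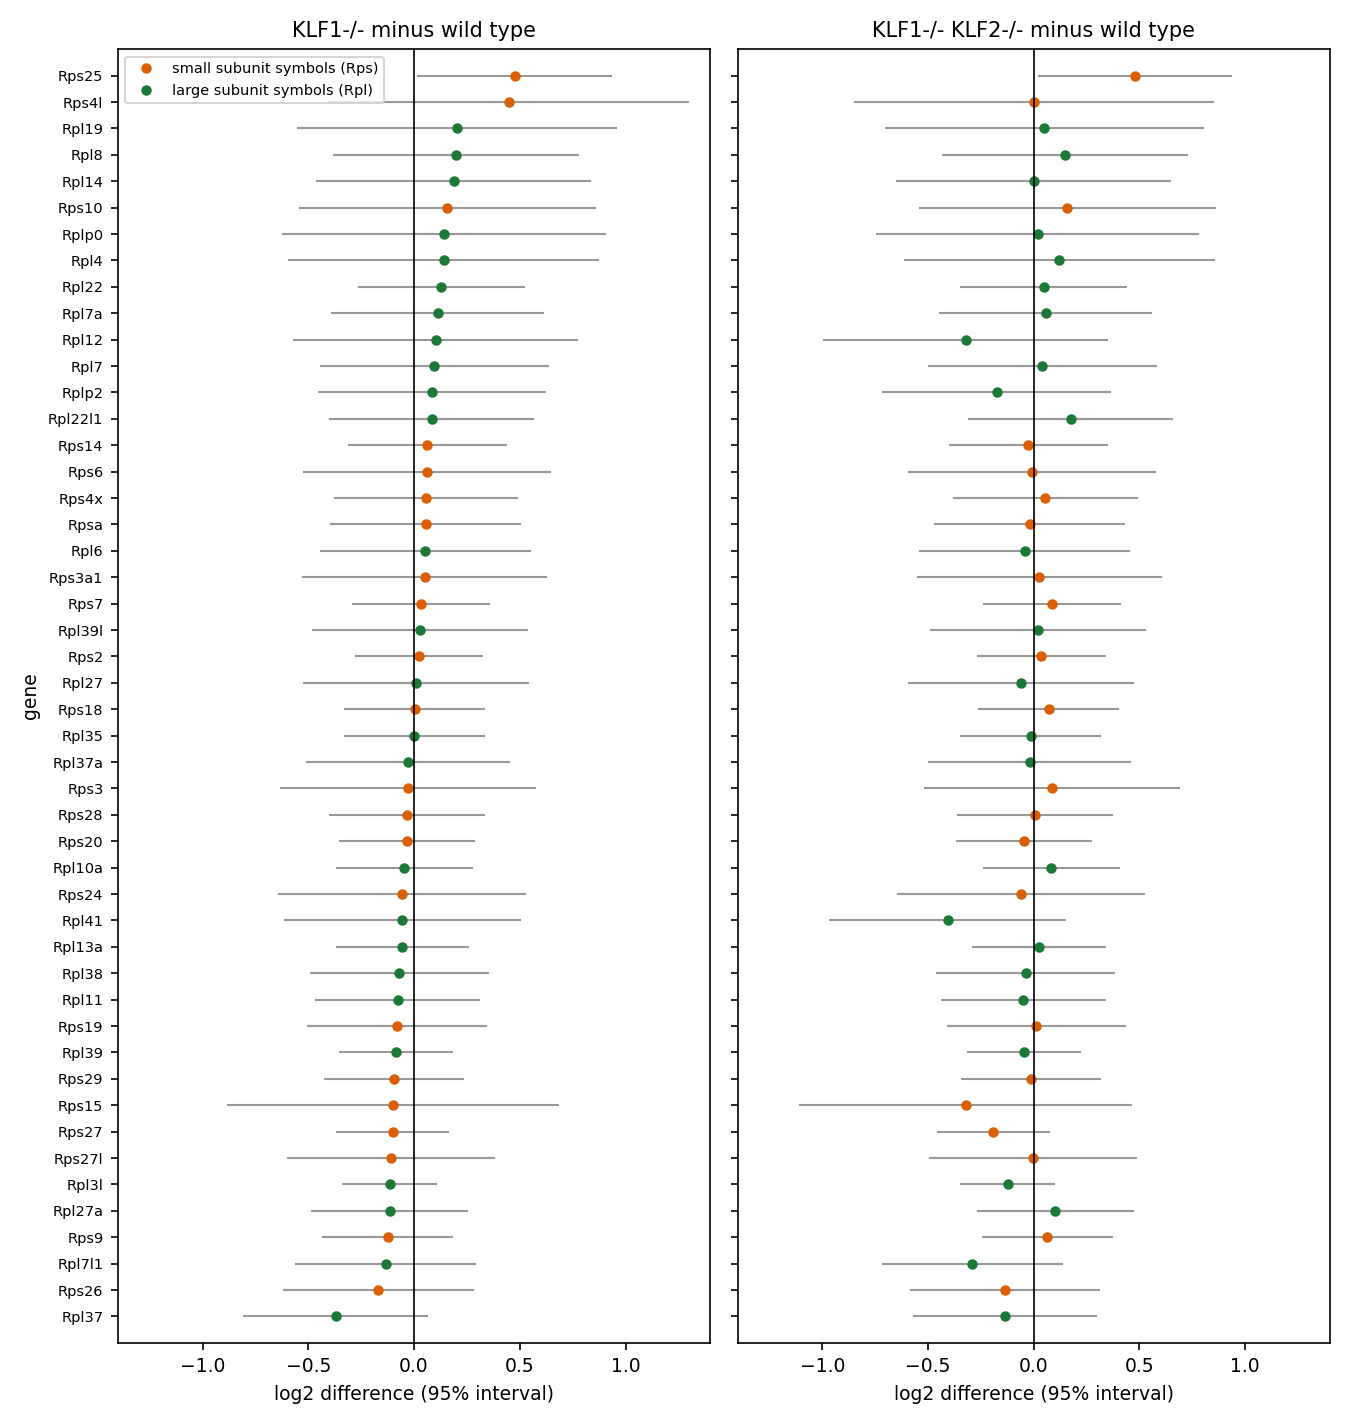
Log2 difference of each of the 48 genes (points) with its 95% interval (bars), for KLF1-/- minus wild type on the left and the arrays labelled KLF1-/- KLF2-/- minus wild type on the right; genes are sorted by the left panel and coloured by subunit. All points lie between −0.41 and 0.48, and the interval of Rps25 alone leaves out 0, in both panels.

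Both subunits had medians near 0. Among 22 small subunit genes, 11 were above 0 in KLF1-/- and 12 in those labelled KLF1-/- KLF2-/-, with median differences of −0.013 and 0.0036. Among 26 large subunit genes these counts were 15 and 13, with medians of 0.020 and −0.0069. The 27 genes with a TOP tract counted had medians of 0.0023 and 0.012, and the 15 genes with a promoter but no tract counted −0.028 and −0.018. This split depends on the annotated start, and a pyrimidine run that begins farther upstream, as in Rps25, is missed. The 3 genes with CCACACCC, which include Rpl3l, the dimmest member, had medians of −0.081 and −0.060. The 39 genes with a promoter but no such match had 0.0023 and 0.0068. With 3 genes, this split shows no effect of the motif.

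Rps25 is a protein of the small subunit's head, known for its need in initiation at certain viral internal ribosome entry sites. Its level was 10.79, 10.91 and 10.71 on the KLF1-/- arrays, 10.83, 11.04 and 10.55 on those labelled KLF1-/- KLF2-/-, and 9.77, 10.39 and 10.99 (lowest, median and highest of 8) in wild type. All mutant arrays were above the wild-type mean, but wild-type replicate 3, at 10.99, was above all KLF1-/- arrays and all but 1 of the others. The difference was 0.48 (95% interval 0.02 to 0.93) in KLF1-/- and 0.48 (0.02 to 0.94) in those labelled KLF1-/- KLF2-/-, with limma adjusted p of 0.9998 and 0.9999. Against the 4 wild-type arrays of the same run of numbers alone, it was 0.36 and 0.60. A brighter probe set, which lists Rps25 among 3 genes, differed by 0.096 and −0.023, so the size was not seen on both. With array weights in limma, Rps25 passed with adjusted p of 0.0488 in KLF1-/- and 0.0012 in those labelled KLF1-/- KLF2-/-; that fit called 2.85% and 18.9% of all genes, and its weights stopped before convergence.

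Rpl37, a zinc-binding protein of the large subunit, had the most negative difference in KLF1-/-. Its level was 9.60, 9.68 and 10.02 on the KLF1-/- arrays, 10.16, 9.97 and 9.88 on those labelled KLF1-/- KLF2-/-, and 9.80, 10.01 and 10.78 (lowest, median and highest of 8) in wild type. The groups overlapped, and wild-type replicates 1 and 3, at 10.78 and 10.64, were the highest of all arrays. The difference was −0.37 (−0.81 to 0.07) in KLF1-/- and −0.14 (−0.57 to 0.30) in those labelled KLF1-/- KLF2-/-, both with a limma adjusted p above 0.99. The brightest probe set that lists Rpl37 with another gene differed by −0.14 and −0.056.

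Rpl41 encodes a very short basic peptide that sits in a bridge between the subunits. It had the most negative difference in the arrays labelled KLF1-/- KLF2-/-, at 12.29, 12.60 and 11.81, against 11.65, 12.66 and 13.16 (lowest, median and highest of 8) in wild type, with 12.47, 12.85 and 12.44 in KLF1-/-. All 3 arrays labelled KLF1-/- KLF2-/- lay below the wild-type mean but above wild-type replicate 12. The difference was −0.41 (−0.97 to 0.15) there and −0.055 (−0.62 to 0.51) in KLF1-/-. The other 3 one-gene probe sets of Rpl41 differed by −0.11, −0.049 and −0.020 in those labelled KLF1-/- KLF2-/-.

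**Figure D2:**
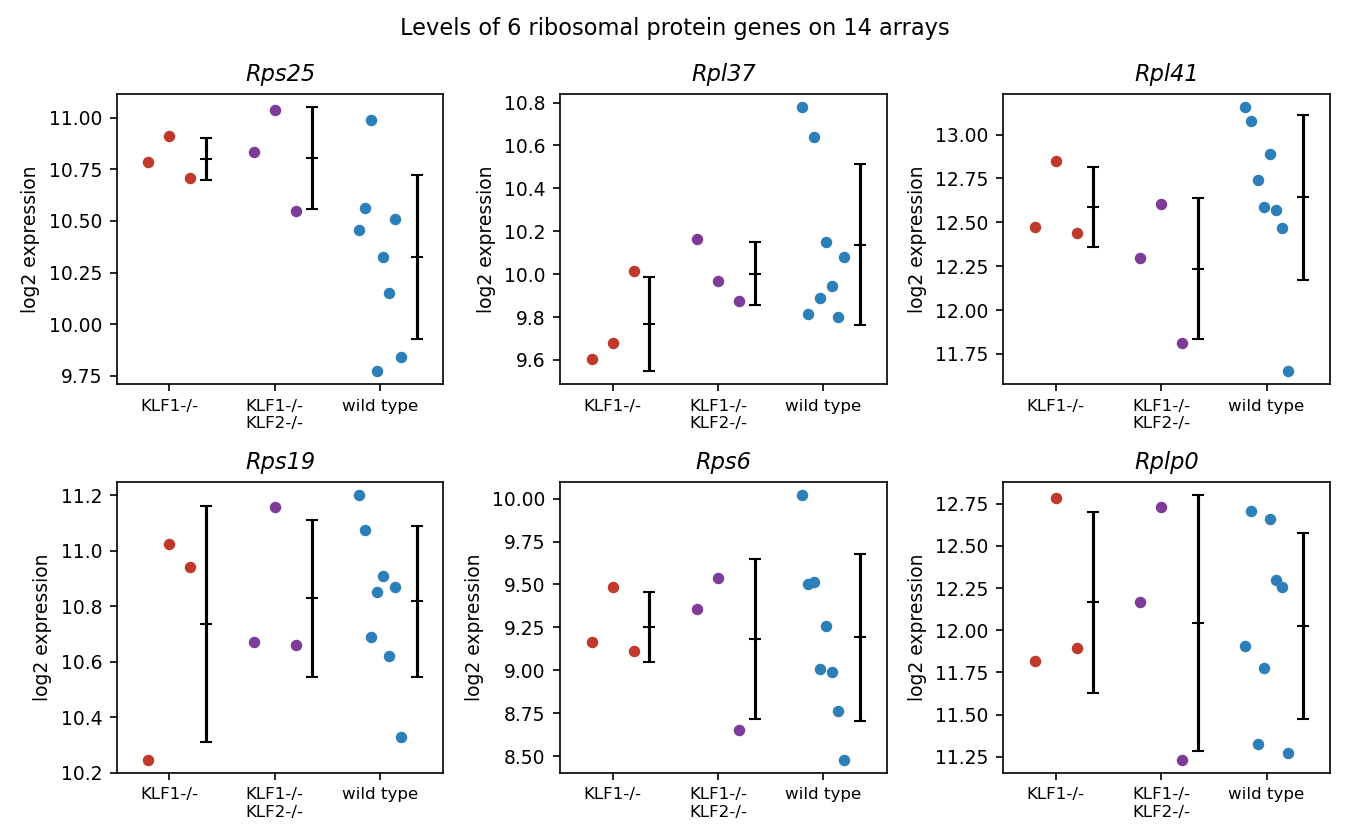
Log2 expression of 6 ribosomal protein genes on every array (points), by genotype, with the group mean and SD (bars; n = 3, 3 and 8). The 3 genotypes overlap in every panel; the second group is the one labelled KLF1-/- KLF2-/-, and the low wild-type point of Rpl41 is replicate 12, at 11.65.

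Rps4l, an autosomal relative of Rps4x, had the second largest positive difference in KLF1-/- after Rps25, and the largest spread within genotypes, with a pooled SD of 0.66. It stood at 7.60, 8.85 and 7.77 in KLF1-/- and 7.44, 8.25 and 7.17 in those labelled KLF1-/- KLF2-/-, against 6.38, 7.68 and 8.77 (lowest, median and highest of 8) in wild type. Its difference in KLF1-/- was 0.45 (−0.40 to 1.30), and 0.062 without KLF1-/- replicate 6, while that in those labelled KLF1-/- KLF2-/- was 0.00040 (−0.85 to 0.85). X-linked Rps4x itself differed by 0.056 in each comparison.

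Rps15, which lies near the decoding site, differed by −0.32 (−1.11 to 0.46) in the arrays labelled KLF1-/- KLF2-/-, and its second probe set by −0.40. Its wild-type arrays alone spanned 9.16 to 11.36. Rpl12, at the base of the stalk that recruits elongation factors, differed by −0.32 (−0.99 to 0.35) there. All of its arrays, at 7.53, 7.45 and 7.27, were below the wild-type mean of 7.74 and inside the wild-type range. The probe sets that list Rpl12 with other genes were brighter, at a mean of 13.15 for the brightest, and that one differed by −0.14. Rpl7l1, a relative of Rpl7 that acts in large subunit assembly, differed by −0.29 (−0.72 to 0.14) there, and its second probe set by −0.19.

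Genes of Diamond-Blackfan anaemia numbered 11 members of the 18 listed. Of these, 4 were above 0 in each comparison, with medians of −0.055 in KLF1-/- and −0.014 in those labelled KLF1-/- KLF2-/-, and all 11 differences were under 0.2 in size in both. Rps19, in which mutations of this anaemia are most often found, was 10.25, 11.02 and 10.94 in KLF1-/- and 10.67, 11.16 and 10.66 in those labelled KLF1-/- KLF2-/-, against 10.33, 10.86 and 11.20 (lowest, median and highest of 8) in wild type. The groups overlapped throughout, and the difference was −0.081 (−0.50 to 0.34) in KLF1-/- and 0.012 (−0.41 to 0.44) in those labelled KLF1-/- KLF2-/-. Rps26, at the exit of the messenger RNA channel, had the most negative difference of the group in KLF1-/-, −0.17 (−0.62 to 0.28), and −0.14 in those labelled KLF1-/- KLF2-/-. Rps10, at the entry of that channel, differed by 0.16 in both. Rps24 and Rps7, both needed to process small subunit RNA, differed by −0.055 and 0.033 in KLF1-/- and by −0.059 and 0.087 in those labelled KLF1-/- KLF2-/-. Rpl11, which also binds the Trp53 inhibitor Mdm2, differed by −0.077 and −0.048 in the same comparisons. Rps28, Rps29, Rpl27 and Rpl35 ranged from −0.094 to 0.010 over both comparisons, and the dim probe set of Rps27 differed by −0.10 and −0.19. Rps14, the gene of the human 5q- anaemia, differed by 0.063 and −0.025.

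Rps6, which S6 kinase phosphorylates downstream of mTOR, was 9.16, 9.48 and 9.11 in KLF1-/- and 9.36, 9.54 and 8.65 in those labelled KLF1-/- KLF2-/-, against 8.48, 9.13 and 10.02 (lowest, median and highest of 8) in wild type. Its difference was 0.060 (−0.53 to 0.65) in KLF1-/- and −0.010 (−0.60 to 0.58) in those labelled KLF1-/- KLF2-/-. The brightest probe set that lists Rps6 with another gene averaged 13.92, against 9.20 here, and differed by −0.019 and 0.064. Rplp0, the base of the stalk, was 11.82, 12.78 and 11.90 in KLF1-/- and 12.17, 12.73 and 11.23 in those labelled KLF1-/- KLF2-/-, against 11.27, 12.08 and 12.71 in wild type. It differed by 0.14 (−0.63 to 0.91) and 0.018 (−0.75 to 0.78), and its partner Rplp2 by 0.086 and −0.18. Rpsa, also known as a laminin receptor, differed by 0.055 and −0.019.

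Further paralogs follow, with the main copies of Rpl22l1 and Rpl39l beside them. Rpl22 differed by 0.13 in KLF1-/- and 0.047 in those labelled KLF1-/- KLF2-/-, and Rpl22l1 by 0.083 and 0.17. Rps27l, a target of Trp53, was 11.65, 11.67 and 11.63 on the KLF1-/- arrays and 11.95, 11.95 and 11.37 on those labelled KLF1-/- KLF2-/-, all inside the wild-type span of 11.16 to 12.42. X-linked Rpl39 differed by −0.084 and −0.047, and its relative Rpl39l, best known from testis, by 0.030 and 0.022. A brighter probe set that lists Rpl39 with another gene averaged 14.03, against 7.98 here, and differed by −0.097 and 0.018. Rpl3l differed by −0.11 and −0.12.

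Between the mutants, labelled KLF1-/- KLF2-/- minus KLF1-/-, the median member differed by −0.0085, against 0.00037 over all genes, with 21 members above 0 and 27 below. The largest differences were those of Rpl37 (0.23), Rpl27a (0.22), Rps9 (0.19) and Rpl10a (0.13). The most negative were Rps4l (−0.45), Rpl12 (−0.42), Rpl41 (−0.35) and Rplp2 (−0.26). Arrays of the 2 mutants overlapped for all 48 members, where 3.25% of all genes did not overlap. With array weights 24 members passed here, where 48.6% of all genes did.

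The members moved together from array to array, within each genotype. Their median level was 12.31, 12.86 and 12.33 on KLF1-/- arrays 5, 6 and 8, and 12.57, 12.80 and 11.88 on arrays 13, 14 and 15 labelled KLF1-/- KLF2-/-. In wild type it was 12.65, 12.76, 12.43 and 12.15 on arrays 1 to 4 and 12.74, 12.49, 12.26 and 11.74 on arrays 9 to 12. As a mean ± SD this gives 12.50 ± 0.31 (n = 3), 12.42 ± 0.48 (n = 3) and 12.40 ± 0.35 (n = 8), so the genotypes differed by less than their arrays did.

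**Figure D3:**
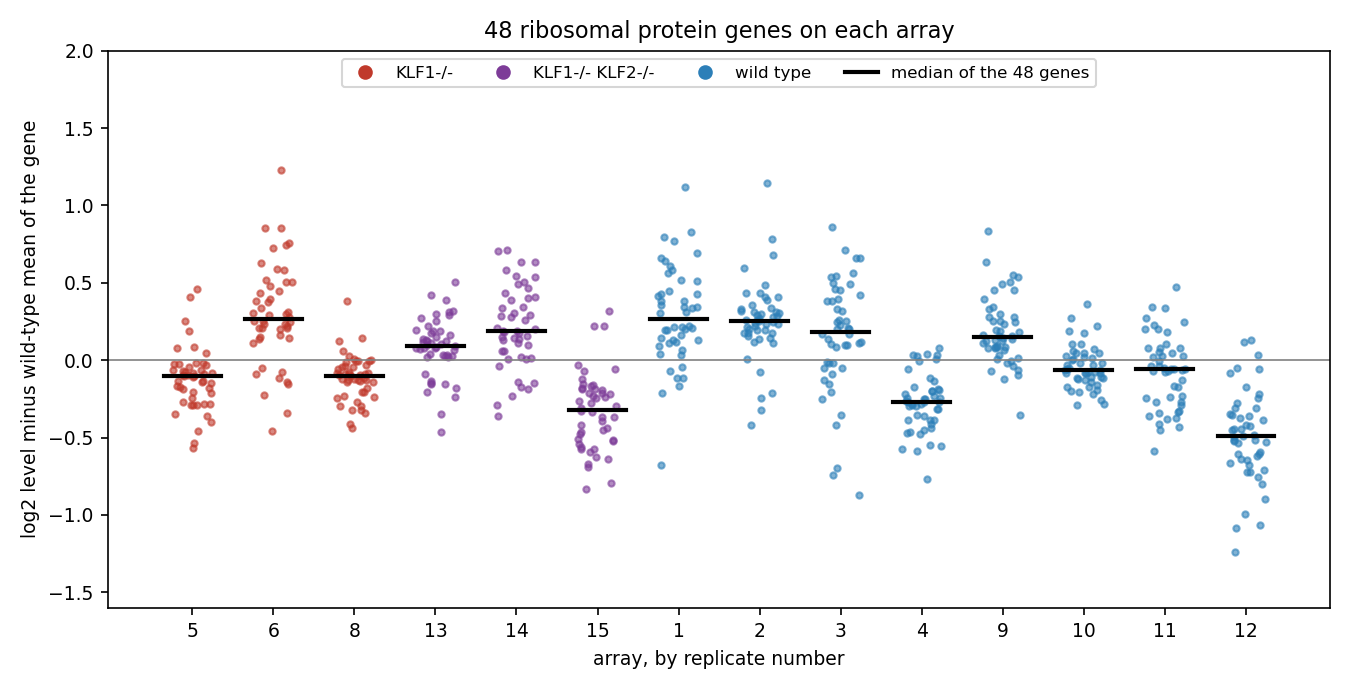
Log2 level of each of the 48 genes minus its wild-type mean (points), on each array by replicate number, with the median of the 48 genes (black bar) and colours for genotype. On most arrays the points move to one side as a group: 39 of 48 are above 0 on KLF1-/- array 6 and 45 are below 0 on wild-type array 12.

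Relative to the wild-type mean of each gene, 41 and 42 of 48 members were low on KLF1-/- arrays 5 and 8, while 39 were high on array 6. Of the arrays labelled KLF1-/- KLF2-/-, arrays 13 and 14 had 38 and 40 members high and array 15 had 45 low. Wild type held both kinds: 43 were high on array 2 and 45 low on array 12. Wild-type array 12 held the lowest value of all 14 arrays for 30 members, and wild-type array 1 and KLF1-/- array 6 held the highest for 18 and 13.

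Within genotypes the pooled SD had a median of 0.335 over the members, against 0.265 over all genes. A member's 8 wild-type arrays spanned a median of 1.01 on the log2 scale, and more than 1 for 25 members. The difference from wild type was smaller than this SD for 46 of 48 members in KLF1-/- and 45 of 48 in those labelled KLF1-/- KLF2-/-. Deviations from the genotype mean correlated between pairs of members with a median Pearson r of 0.692 (1128 pairs over 14 arrays that share one RNA and one normalization per array; 86.3% of pairs above 0). Against the median of the other members, 31 had an r above 0.8 and 8 were below 0.5. Those 8 were Rpl27a, Rpl37, Rpl39, Rpl39l, Rpl3l, Rps27, Rps3 and Rps9, of which Rps3 was named after its value was seen.

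**Figure D4:**
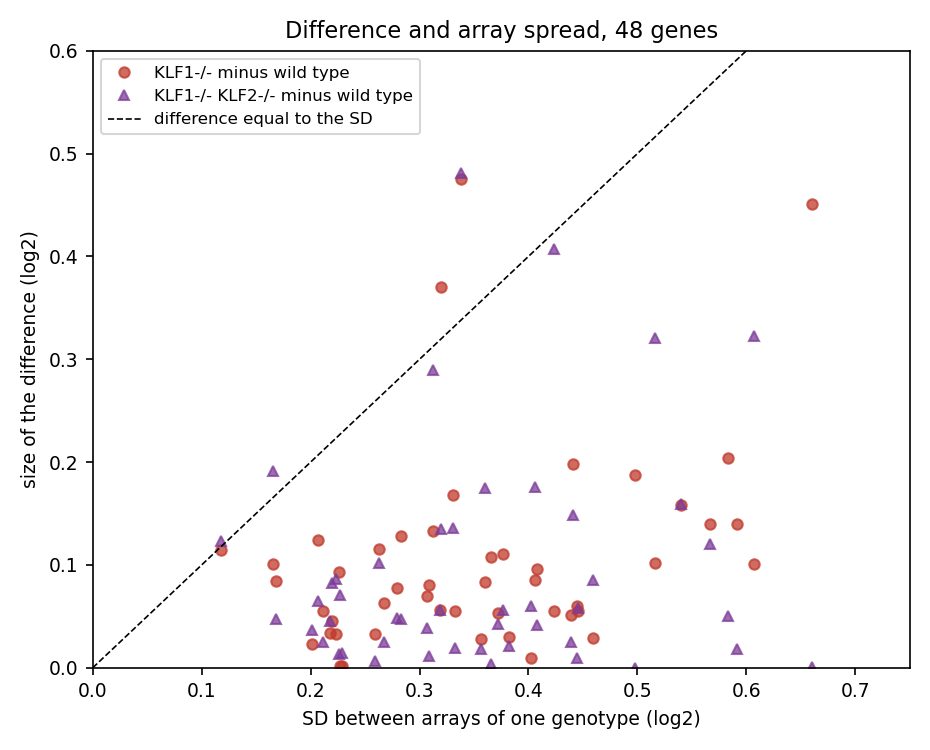
Size of the log2 difference from wild type (vertical axis) against the SD between arrays of one genotype (horizontal axis) for the 48 genes, in KLF1-/- (circles) and those labelled KLF1-/- KLF2-/- (triangles). Points under the dashed line differ by less than the SD, as 46 circles and 45 triangles do.

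An array measure moved with this shared level. The interquartile range of all genes was 2.38, 3.11 and 2.44 on KLF1-/- arrays 5, 6 and 8, and 2.59, 2.80 and 2.33 on arrays 13, 14 and 15 labelled KLF1-/- KLF2-/-. It was 2.57, 2.89, 2.34 and 2.34 on wild-type arrays 1 to 4 and 2.72, 2.57, 2.59 and 2.20 on arrays 9 to 12. The array with the widest range had the highest member median and that with the narrowest the lowest. By rank within the array, the median member stood above 98.04% to 98.97% of genes. The excess of the Gapdh 3′ control over its 5′ control, a measure of how far signal leans to the 3′ end, ran from 3.90 to 5.28 over the arrays. Whether it came from the RNA or from its amplification was not tested. The part of array range, 3′ excess and RNA quality in the shared level was not tested either.

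**Figure D5:**
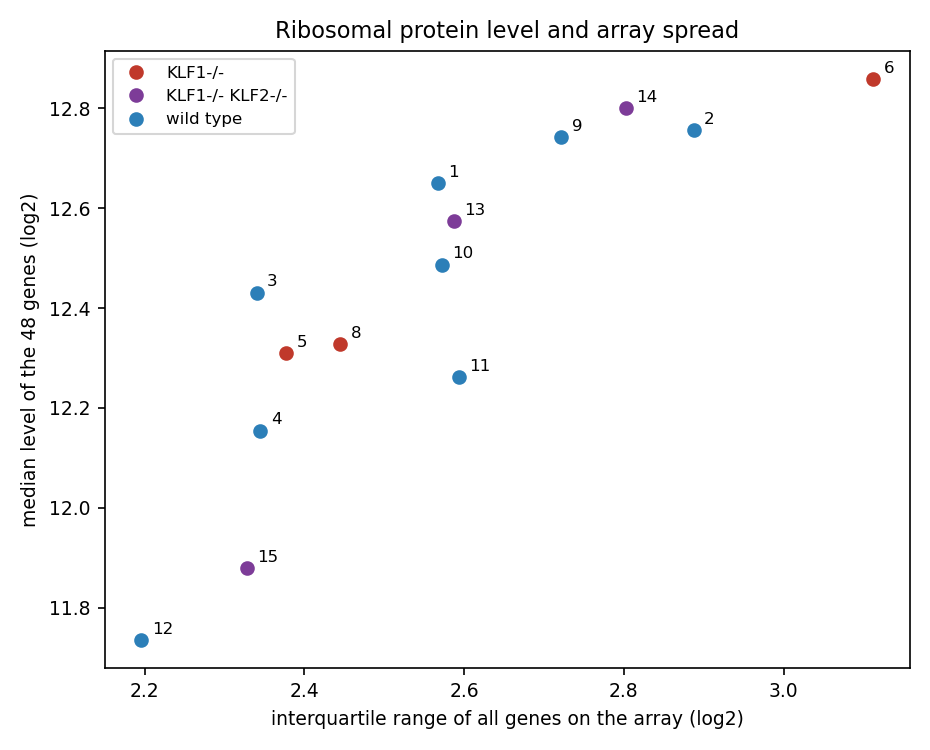
Median log2 level of the 48 genes (vertical axis) against the interquartile range of all 12393 genes (horizontal axis) on each of the 14 arrays, labelled by replicate number and coloured by genotype. Array 6 is at the upper right and array 12 at the lower left, and each genotype spreads along the same band.

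The replicate numbers fall in a first run of 1 to 8, with 4 wild-type and all KLF1-/- arrays, and a second of 9 to 15, with 4 wild-type arrays and the 3 labelled KLF1-/- KLF2-/-. Nothing in the labels names these runs as batches. Between the wild-type arrays of the second and first run, 40 of 48 members were lower in the second, by a median of −0.19. There 0 members were called in limma, against 0 of all genes, and 4 were below 0.05 without adjustment, against 7.49% of all genes. With the run as a block the median of the members was −0.10 in KLF1-/-, with 15 above 0. It was 0.11 in those labelled KLF1-/- KLF2-/-, with 36 above 0. In both comparisons 0 members passed, where 3 and 7 of all genes did. Scaling all arrays to one interquartile range gave −0.20 with 4 above 0 and −0.084 with 7 above 0, so the sign of the family's median depended on these choices.

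The wider translation machinery was described from lists. Of 38 measured initiation factors 26 were above 0 in KLF1-/- and 21 in those labelled KLF1-/- KLF2-/-, with medians of 0.091 and 0.013. The smallest p belonged to Eif4e3, a cap-binding protein of the Eif4e family, at 0.58 in those labelled KLF1-/- KLF2-/- (limma adjusted p = 0.626). Of 10 elongation factors and companions 4 and 6 were above 0, with medians of −0.056 and 0.038. The 31 measured ribosome assembly factors had 19 above 0 in KLF1-/- and 6 in those labelled KLF1-/- KLF2-/-, with medians of 0.019 and −0.12. Nop56, a core protein of the particles that methylate ribosomal RNA, differed by −0.17 in KLF1-/- and −0.40 in those labelled KLF1-/- KLF2-/- (limma adjusted p = 0.9999). Nop10, of the particles that make pseudouridine in ribosomal RNA, differed by −0.19 and −0.28. The 74 mitochondrial ribosomal proteins, which serve the separate ribosome of that organelle, had 40 and 23 above 0, with medians of 0.046 and −0.071. Among 11 regulators, Cdkn1a, a cell cycle inhibitor under Trp53, differed by 0.37 in those labelled KLF1-/- KLF2-/-, and Mdm2 by 0.37 in KLF1-/-. Of these lists 0 genes passed in limma, against 0.0403% and 0.0646% of all genes, and at an unadjusted p under 0.05 there were 2 assembly factors, 1 initiation factor and 1 regulator, all in those labelled KLF1-/- KLF2-/-, where 2.32% of all genes lay below it. Fau, the 1 measured ribosomal protein outside the symbol rule, differed by 0.21 and −0.051.

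Markers of other cells were also read, since more or fewer cells of a type and more or less RNA per cell cannot be told apart in captured tissue. Erythroid markers were above 0 for 1 of 10 in KLF1-/- and 6 of 10 in those labelled KLF1-/- KLF2-/-. Their differences ran from −2.22 to 0.43 and from −2.06 to 0.47, with medians of −0.049 and 0.024. The mean log2 level of these 10 erythroid markers was 10.44 to 10.63 in KLF1-/-, 10.33 to 10.99 in those labelled KLF1-/- KLF2-/- and 10.55 to 11.62 in wild type. That of 9 visceral endoderm markers was 11.39 to 12.02, 11.36 to 11.47 and 10.68 to 12.42, so signal of the neighbouring endoderm was present in every group. Mesenchyme markers were above 0 for 4 of 8 in KLF1-/- and 8 of 8 in those labelled KLF1-/- KLF2-/-, with mean levels of 9.67 to 10.56 in KLF1-/-, 10.14 to 10.53 in those labelled KLF1-/- KLF2-/- and 9.53 to 10.52 in wild type. Megakaryocyte markers were above 0 for 6 and 7 of 7, and their mean level was 7.45 to 7.61, 7.73 to 8.12 and 7.10 to 7.49 in the same groups, so all arrays labelled KLF1-/- KLF2-/- were above all wild-type arrays. Macrophage markers were above 0 for 3 and 7 of 10, and their mean level was 6.47 to 6.59, 6.87 to 6.94 and 6.35 to 6.81 in the same groups, so here too all arrays labelled KLF1-/- KLF2-/- were above all wild-type arrays. Endothelial markers were above 0 for 8 and 6 of 9, with mean levels of 6.60 to 7.004, 6.62 to 6.79 and 6.54 to 6.81. Of these 6 lists 0 genes passed in limma, against 0.0403% of all genes in KLF1-/- and 0.0646% in those labelled KLF1-/- KLF2-/-. At an unadjusted p under 0.05, where 2.03% and 2.32% of all genes lay, there were 3 and 3 of 10 erythroid, 1 and 2 of 10 macrophage, 0 and 2 of 8 mesenchyme, 1 and 5 of 7 megakaryocyte markers, and none of the other 2 lists. The part of other cells in the ribosomal protein levels was not tested.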

How the data were processed

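Expression was measured on Affymetrix mouse arrays, 1 per sample. The deposited values are log2 expression per probe set, made with GCOS, RMA and the affy and limma packages per the submitters' processing notes, which give no versions. As a method, RMA corrects background, normalizes between arrays and summarises probes, which can hide a change shared by most genes. In the deposited values the array medians over all genes ran from 6.95 to 7.05, but the interquartile ranges from 2.20 to 3.11. The array spreads were thus unequal, and how the values were normalized between arrays was not tested. Of 22690 probe sets, 64 were controls, 20380 had 1 gene in the platform annotation, 691 had several and 1555 had none. Each of 12393 genes was given by the one-gene probe set with the highest mean over the 14 arrays, with no filter on dim genes.

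The linear model held 1 mean per genotype over all 14 arrays and was run in limma 3.58.1 under R 4.3.3, with moderated two-sided tests from eBayes. Benjamini-Hochberg adjustment covered all genes, with calls made under an adjusted p of 0.05. The number of arrays limits the precision. Replicates are separate pools of yolk sacs, but the sources used here do not say whether pools shared a litter. The fit was tested on simulated data with known changes and noise drawn independently for each gene and array. Shifts shared by many genes of an array, as seen here, were not part of that simulation. Alternatives changed the normalization, the probe set per gene, the variance model, array weights, covariates and the arrays used.

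The members and lists were chosen with earlier results of these data known, though the symbol rule for members uses no measured difference. Named genes are the 4 most positive and 4 most negative members per comparison, the 3 at each end of level and of spread, the anaemia genes, Rps14, Rps6, the stalk proteins, Rpsa, X-linked members and paralogs. Of the other lists, up to 3 genes with the smallest p were nameable. All 48 members matched a RefSeq gene of GRCm38.p6 by identifier. Promoter sequences are RefSeq's. The 6 members without one there are Rps29, Rps4l, Rpl7, Rpl8, Rps20 and Rps14. Figures were made with Python 3.11.15 and matplotlib 3.10.9.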

Additional observations from a re-analysis of the deposited data

Results flagged for a closer look

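Rpl41 was singled out because 1 wild-type array lay far from the other 7. Replicate 12 was at 11.65, the next lowest array was at 12.47 and the highest at 13.16, so the gap was 0.543 of the whole range, above Dixon's 95% critical value for 8 arrays. Among the 40 values tested this was the 1 that passed, and chance alone passes about 1 in 20 such groups. Array 12 also held the lowest wild-type value for 34 of the 48 members.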

How the results depend on the processing

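No paired analysis was possible because the genotypes share no replicate number. Over 30 settings, 0 members were called in every one except array weights, where 1, 9 and 24 were called in KLF1-/- minus wild type, labelled KLF1-/- KLF2-/- minus wild type and labelled KLF1-/- KLF2-/- minus KLF1-/-, beside 353, 2347 and 6029 of all genes. There the estimate of the weights stopped before convergence. In the other settings at most 24 of all genes were called in any comparison, so a count of 0 members says little there. Under array weights 81.25% of members were above 0 in the last comparison, against 43.75% in the main fit, so many members turned sign. Of the named genes that passed there, those that turned sign were Rpl19 (0.55), Rpl27 (0.29), Rpl39l (0.50), Rpl7 (0.33), Rpl8 (0.35), Rps19 (−0.23) and Rpsa (0.38). The cause was not tested.

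The count of members above 0 depended on the setting. In KLF1-/- minus wild type, against 26, it was 15 with the number run as a block and 15 within the run of the mutant, 4 with arrays scaled to one interquartile range, 11 with array weights, 8 with the Gapdh covariate, 13 with the array median of the members as a covariate and 3 when the arrays of widest and narrowest interquartile range (KLF1-/- 6 and wild type 12) were left out. For labelled KLF1-/- KLF2-/- minus wild type, against 25, it was 7 with the scaling, 39 of 74 with probe sets of several genes and 12 without the end arrays. It also rose there: the share above 0 was 75% with the block and 70.8% with array weights, against 52.1% in the main fit. For labelled KLF1-/- KLF2-/- minus KLF1-/-, against 21, it was 39 with the block, 35 with the scaling, 39 with array weights, 32 with Gapdh, 35 of 74 with probe sets of several genes, 33 with the member median and 39 without the end arrays. With quantile normalization it fell instead, to 29.2% of members above 0, against 43.75% in the main fit. The covariate of the member median and the fit without end arrays were chosen after seeing the data, as was quantile normalization with the block.

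Leaving out 1 array at a time gave 0 called members throughout, where at most 8 of all genes were called in any comparison. In the same order of comparisons the median ran from −0.13 to 0.093, from −0.11 to 0.14 and from −0.11 to 0.16, and the members above 0 numbered 4 to 35, 6 to 38 and 11 to 40. In the first comparison it was 4 without KLF1-/- replicate 6 and 13 without wild-type replicate 12. In the second it was 6, 15 and 38 without replicates 14, 13 and 15 of those labelled KLF1-/- KLF2-/- and 12 without wild-type replicate 12. In the third it was 11 and 39 without KLF1-/- replicates 5 and 6, and 13 and 40 without replicates 14 and 15 of those labelled KLF1-/- KLF2-/-. Over the other settings the medians ran from −0.21 to 0.027, from −0.084 to 0.11 and from −0.029 to 0.23, each within 1 SD of the arrays. For the 39 named genes, 3172 of 3231 values kept their side of the threshold and their size, and 32 moved by more than the spread. Under array weights 20 passed with their sign kept and 7 with it turned. A change of sign without passing was seen for 532 values.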
